A study of Mus musculus with 121 samples.

Results

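The genes described here are 6 members of the THAP family of transcription factor genes, Thap1, Thap2, Thap3, Thap4, Thap7 and Thap11, together with Hcfc1, which encodes the THAP cofactor HCF-1. They are 7 of the 55351 gene symbols in the RNA-seq time series. The set was chosen by the early level of Thap1, which was higher in nascent and steady-state RNA after auxin treatment to deplete YY1. The values of Thap1 against untreated libraries, and the step from 4 h to 24 h, are therefore given as a description without a test. The other 6 genes were tested in every comparison, and all 7 passed the filter on low counts in each of the 3 count tables.

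The cells were G1E-ER4, a mouse erythroid progenitor line derived from embryonic stem cells, growing asynchronously. In the YY1-AID subline the transcription factor YY1 carries an auxin-inducible degron, so that auxin leads to breakdown of the protein. All libraries of the time series and of TT-seq came from this subline, the untreated ones included, and differed in auxin: 0, 4, 24 or 48 h for RNA-seq (3 libraries each), and none or 4 h for TT-seq (3 libraries each), which measures RNA made during a 5 min pulse of 4-thiouridine. A separate RNA-seq table compared 3 lines without auxin, namely the parental cells, YY1-AID and a further YY1-AID derivative labelled subline 3 (2 libraries each). Each subline stands for its own derivation from the parental line, and no label says that replicates were separate cultures, so p-values measure the spread between these libraries, which may be technical. The 24 h and 48 h libraries had no untreated libraries of the same age. No RNA-seq or TT-seq library of parental cells had auxin, so effects of auxin itself and of YY1 loss cannot be told apart.

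THAP proteins share an N-terminal zinc-binding domain, the THAP domain, that in several members binds DNA. Several also carry a short motif that binds HCF-1, a large nuclear protein that brings histone-modifying enzymes and the glycosyltransferase OGT to promoters. THAP1 regulates cell cycle genes and its human gene is mutated in a form of dystonia. THAP11, called Ronin in embryonic stem cells, acts with HCF-1 and ZFP143 at promoters of metabolic genes.

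YY1 binds a core of ATGGC, and its consensus is often extended to ATGGCG, so the RefSeq promoter entries (build GRCm38.p6, 250 bases before to 50 after the start) were searched for both on both strands. Entries were found for 6 of the 7 genes: Thap2, Thap3, Thap4 (2 entries), Thap7, Thap11 and Hcfc1. ATGGCG or its reverse complement was present for 5 of these 6 genes, against 8.93% of 32841 promoter entries, and the shorter ATGGC, which it contains, for 6 of 6, against 40.5% of entries. Members were counted by gene and the background by entry, whether or not its gene was expressed. For Thap4 only the first entry held these motifs. A match is a stretch of letters and says nothing of binding. The 250 bases before the start are shown for Thap2, Thap7, Thap11 and Hcfc1. The RNA of Thap2 fell most among the 6 tested members, and that of Hcfc1 rose. Thap7 and Thap11 differed in the longer motif. Capitals mark ATGGC or its reverse complement GCCAT, and each sequence is on the strand of its gene.
Thap2 (chr10:115384436-115384685, minus strand): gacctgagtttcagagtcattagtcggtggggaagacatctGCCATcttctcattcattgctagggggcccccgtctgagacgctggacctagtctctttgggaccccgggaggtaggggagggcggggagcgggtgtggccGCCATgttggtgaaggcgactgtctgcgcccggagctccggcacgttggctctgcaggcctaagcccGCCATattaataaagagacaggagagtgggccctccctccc
Thap7 (chr16:17531053-17531302, minus strand): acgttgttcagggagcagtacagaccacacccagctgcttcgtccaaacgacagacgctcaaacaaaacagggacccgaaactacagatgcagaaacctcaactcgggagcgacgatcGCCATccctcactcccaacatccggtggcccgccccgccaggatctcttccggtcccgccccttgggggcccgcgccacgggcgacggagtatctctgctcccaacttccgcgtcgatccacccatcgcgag
Thap11 (chr8:105854853-105855102, plus strand): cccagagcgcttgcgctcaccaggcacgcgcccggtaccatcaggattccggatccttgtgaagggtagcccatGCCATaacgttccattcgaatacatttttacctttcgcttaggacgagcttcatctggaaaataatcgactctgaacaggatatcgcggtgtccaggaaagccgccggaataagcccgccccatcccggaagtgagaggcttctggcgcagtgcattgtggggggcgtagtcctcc
Hcfc1 (chrX:73966358-73966607, minus strand): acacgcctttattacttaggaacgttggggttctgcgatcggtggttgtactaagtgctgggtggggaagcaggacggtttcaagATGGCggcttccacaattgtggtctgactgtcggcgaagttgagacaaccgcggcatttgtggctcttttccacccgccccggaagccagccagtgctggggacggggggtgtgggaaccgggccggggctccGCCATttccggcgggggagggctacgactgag
Counted from the gene's start, the longer motif began at -109 and -42 in Thap2, both on the opposite strand. It began at -133 in Thap7, also on the opposite strand. In Hcfc1 it began at -165 and, past the printed stretch, at 28 on the gene's own strand, and at -33 on the opposite strand. In Thap3 the longer motif began at -7, on the opposite strand. Thap11 had only the shorter motif, at -176. The longer motif was thus present in genes that fell (Thap2, Thap4), rose (Hcfc1, Thap3) or did not pass the test in any comparison (Thap7). The element bound by THAP11 and ZFP143, written ACTACA-NN-TCCC, was found in 1 member, in the second entry of Thap4 (ACTACAATTCCC at -79), against 1.81% of entries. The THAP1 core GGGCA was found in Thap2, Thap3 and Thap4, against 53.5% of entries, and with the T and 2-base gap before it (T-NN-GGGCA) in Thap3 only, against 13.9%.

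Library totals were 25.1 to 26.2 M estimated counts in the time series, 35.2 to 44.9 M in the untreated lines and 30.2 to 53.5 M counted reads in TT-seq. In TT-seq, Rn45s (ribosomal precursor RNA) took 22.2% to 38.8% of the counts and was highest in replicate 1 of both groups. The degron acts on protein, so the RNA of Yy1 does not check the labels: Yy1 was at 239 to 277 CPM (counts scaled to a library of 1000000) at 0 h and 243 to 308 CPM at 4 h. Of the 10 erythroid markers listed in the time series, 10 averaged over 1 CPM in each group. The B cell and myeloid markers averaged under 1 CPM. Of the pluripotency markers, Pou5f1 and Sox2 were at 0, while group means of Nanog were 0.226 to 0.562 CPM. Summed megakaryocyte markers (Pf4, Gp9, Itga2b) were 37.8 to 52.0 CPM at 0 h, 40.4 to 50.5 CPM at 4 h, 102 to 142 CPM at 24 h and 210 to 249 CPM at 48 h. At 0, 24 and 48 h the mean was 29.4, 95.1 and 192 CPM for Itga2b and 1.68, 12.5 and 20.6 CPM for Gp9. Pf4 showed no such rise, with means of 14.9, 12.2 and 16.8 CPM. Summed erythroid markers were 2697 to 2759 CPM at 0 h, 2699 to 2803 CPM at 4 h, 2090 to 2261 CPM at 24 h and 2439 to 2748 CPM at 48 h, the 24 h libraries being below all others. These markers did not move together. Alas2, the first enzyme of heme synthesis in erythroid cells, rose at 24 h (log2 fold change 1.15 ± 0.33, adjusted p = 0.0120) and 48 h (2.33 ± 0.33, adjusted p = 5.87e-05). Mean CPM of Tal1 was also above 0 h at both times, while that of Klf1, Gata2, Kit, Tfrc and Epor was below it at both. Gfi1b stayed near its 0 h mean, and the means of Nfe2 and Hba-a1 were lower at 24 h and higher at 48 h. Summed T cell markers were 9.03 to 9.75 CPM at 0 h, 5.61 to 7.98 CPM at 4 h, 2.90 to 5.08 CPM at 24 h and 2.16 to 2.87 CPM at 48 h, with Cd3e at 0 and no library with auxin as high as those at 0 h. Most of this sum was Lck, with a mean of 8.28 CPM at 0 h and 5.10 CPM at 4 h. Mean Cd3g instead went from 1.06 CPM at 0 h to 1.61 CPM at 4 h, and was lower than at 0 h later. The part of these shifts in the 4, 24 and 48 h results was not tested. In bulk RNA, fewer cells of a type and less RNA per cell cannot be told apart.

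Thap1 was at 19.7, 18.2 and 18.8 CPM in replicates 1, 2 and 3 at 0 h. At 4 h it was at 46.5, 48.4 and 53.6 CPM, at 24 h at 46.4, 49.9 and 48.1 CPM, and at 48 h at 46.7, 48.3 and 45.8 CPM. Every library with auxin was above every library at 0 h, and the 3 later time points overlapped. The log2 fold changes from 0 h were 1.39 ± 0.07 (SE), 1.35 ± 0.07 and 1.32 ± 0.07 at 4, 24 and 48 h, the fold at 4 h being 2.62. From 24 h to 48 h, a step the choice of the set did not use, Thap1 differed by -0.04 ± 0.07 (adjusted p = 0.825). In nascent RNA, Thap1 was at 8.50, 5.77 and 7.16 CPM in the untreated replicates 1, 2 and 3 and at 26.1, 19.2 and 24.5 CPM in the auxin replicates. The lowest auxin library was above the highest untreated one, with a log2 fold change of 1.71 ± 0.17, or 3.27-fold.

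**Figure D1:**
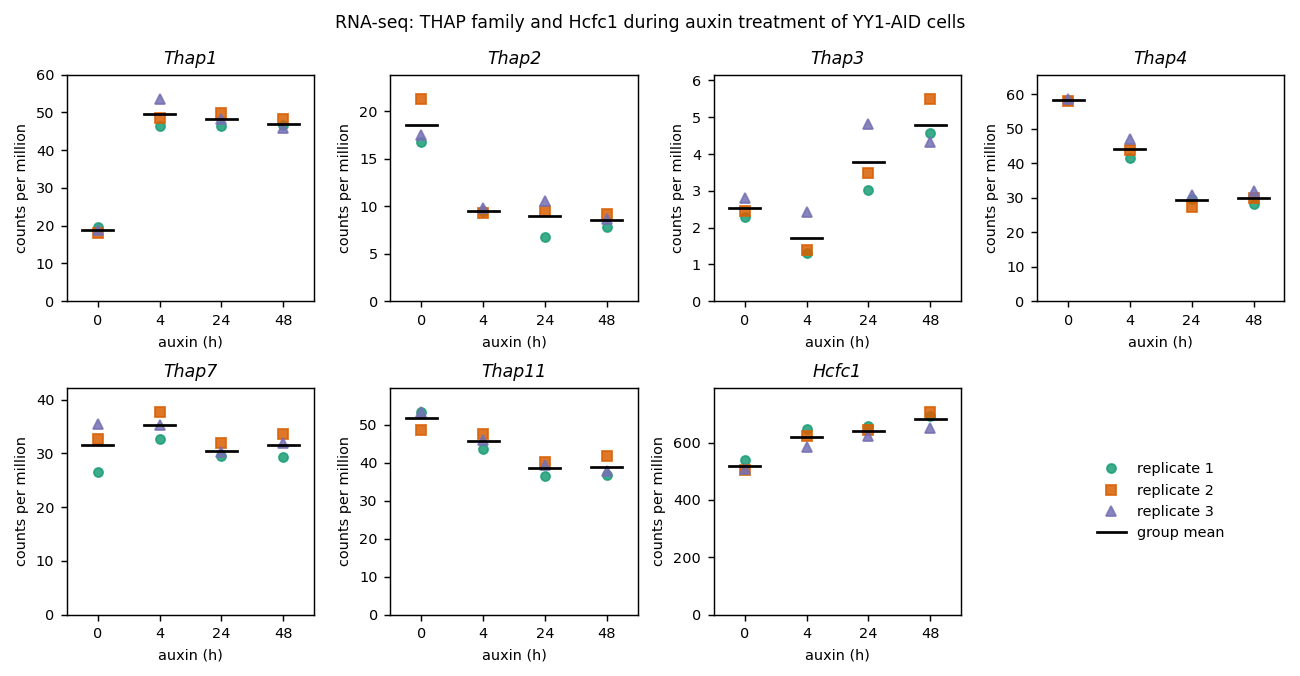
RNA-seq CPM (vertical axis, from 0) of each gene by hours of auxin, with 1 point per library shaped by replicate number and a bar at the mean of 3. Thap1 stands near 19 CPM at 0 h and between 45.8 and 53.6 CPM afterwards, Thap2 and Thap4 are lower at every later time, and Hcfc1 is higher.

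Among the 6 other genes, 1 rose (Hcfc1) and 2 fell (Thap2, Thap4) in steady-state RNA at 4 h, against 3.14% of all 15157 tested genes that rose and 4.14% that fell. At 24 h, 1 rose (Hcfc1) and 3 fell (Thap2, Thap4, Thap11), against 21.5% of tested genes in each direction. At 48 h, 2 rose (Hcfc1, Thap3) and the same 3 fell, against 24.9% and 24.6%. The later shares are large across the whole transcriptome, so a call for a single gene at 24 h or 48 h is common, and these comparisons share the 0 h libraries. The median log2 fold change of the 6 genes was -0.29, -0.23 and -0.21 at 4, 24 and 48 h, beside 0.01, 0.03 and 0.03 over all tested genes.

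Thap2, a family member of which little is known, was lower at 4 h and at both later times. It was at 16.8, 21.3 and 17.5 CPM at 0 h and at 9.53, 9.26 and 9.86 CPM at 4 h, followed by 6.74, 9.55 and 10.5 CPM at 24 h and 7.82, 9.22 and 8.65 CPM at 48 h. The 0 h libraries were above all 9 libraries with auxin. The log2 fold changes were -0.96 ± 0.15 at 4 h (adjusted p = 0.0023), -1.05 ± 0.15 at 24 h (adjusted p = 9.54e-05) and -1.12 ± 0.15 at 48 h (adjusted p = 3.92e-05). Neither the step from 4 h to 24 h (-0.10 ± 0.15, adjusted p = 0.673) nor that from 24 h to 48 h (-0.06 ± 0.15, adjusted p = 0.864) passed the test. Thap2 thus moved in the opposite direction to Thap1. The 24 h libraries overlapped those of 4 h and of 48 h, and the 4 h libraries were all just above those of 48 h.

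In TT-seq, Thap2 was at 9.63, 16.7 and 11.8 CPM in untreated replicates 1, 2 and 3 and at 3.35, 5.82 and 3.70 CPM with auxin. The groups did not overlap, and each auxin library was at less than the untreated library of the same number. The log2 fold change was -1.55 ± 0.26 (adjusted p = 0.0092), or 0.342 of the untreated level. This call was lost when auxin replicate 3 was left out (-1.44 ± 0.31, adjusted p = 0.062) and when libraries were scaled by the Drosophila spike-in (-1.64 ± 0.74, adjusted p = 1.00), under which 1 gene in all was called. With the replicate block the log2 fold change of Thap2 was -1.57 ± 0.10 (adjusted p = 6.04e-32). That fit left 2 residual degrees of freedom and drew most of its variance estimate from other genes (131 prior degrees of freedom). The size of this p-value therefore rests little on the Thap2 libraries' own spread. Spike-in scaling together with the block, which called 3539 genes in all, kept the call of Thap2. In that fit the prior degrees of freedom were infinite, so its variance estimate came from all genes.

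Thap4, which encodes a THAP protein with a heme-binding domain, fell in 2 steps. It was at 58.4, 58.2 and 58.7 CPM at 0 h and at 41.6, 44.0 and 47.0 CPM at 4 h, and then at 29.6, 27.2 and 30.9 CPM at 24 h and 28.2, 29.9 and 32.0 CPM at 48 h. The 4 h libraries lay between the 0 h libraries and the later ones without overlap. The log2 fold changes from 0 h were -0.40 ± 0.07 (adjusted p = 0.0056), -0.999 ± 0.08 (adjusted p = 4.90e-07) and -0.96 ± 0.08 (adjusted p = 3.89e-07). The further fall from 4 h to 24 h was -0.59 ± 0.08 (adjusted p = 6.77e-05), and 24 h and 48 h differed by 0.04 ± 0.08 (adjusted p = 0.825).

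Nascent Thap4 RNA was at 49.9, 58.7 and 52.8 CPM in untreated replicates 1, 2 and 3 and at 35.8, 44.7 and 38.9 CPM with auxin. All auxin libraries were below all untreated ones, with a log2 fold change of -0.43 ± 0.11 (adjusted p = 0.0413). With the replicate number as a block, which pairs the TT-seq libraries, it was -0.43 ± 0.05 (adjusted p = 1.88e-14). As for Thap2, this blocked fit drew most of its variance estimate from other genes. The call without the block was close to the threshold: it was lost in 5 of the 6 fits that left out 1 library (untreated replicates 1, 2 and 3 and auxin replicates 1 and 3, adjusted p up to 0.161), without replicate 1 of both groups (adjusted p = 0.0933) and under spike-in scaling (-0.49 ± 0.78, adjusted p = 1.00). Under spike-in scaling with the block, the fit with infinite prior degrees of freedom, it was kept.

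**Figure D2:**
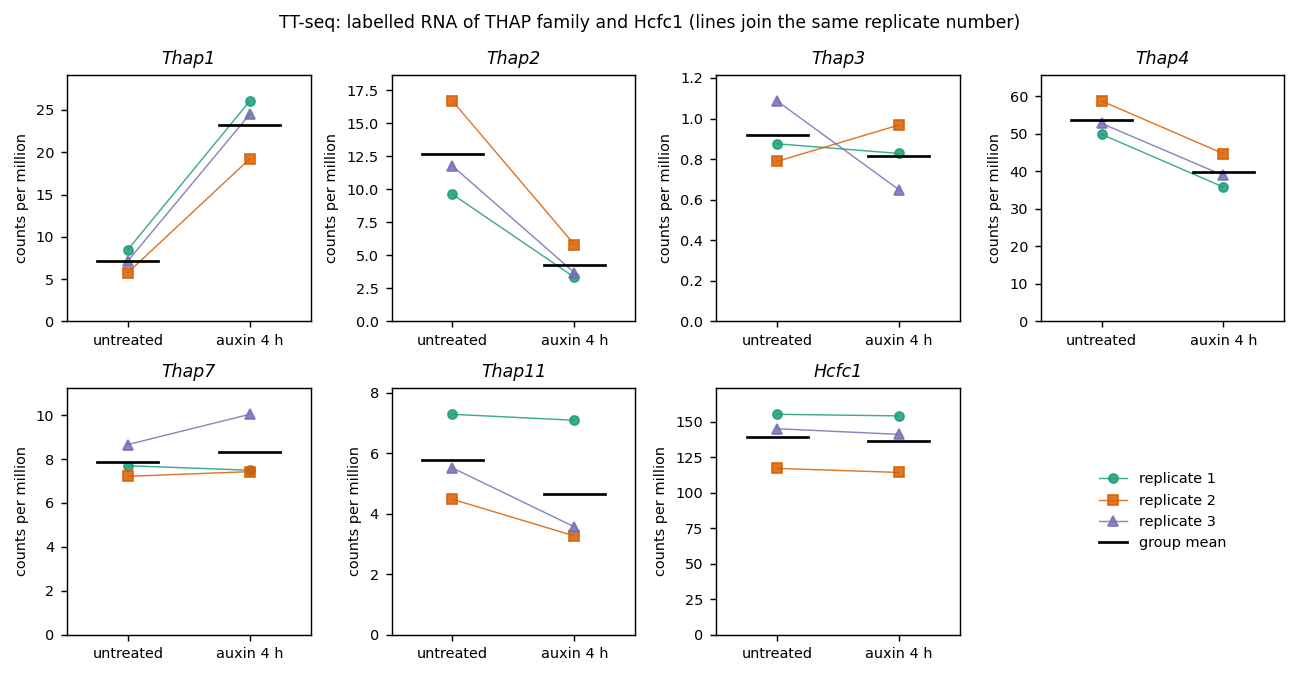
TT-seq CPM (vertical axis, from 0) of each gene in untreated and 4 h auxin libraries, with lines joining libraries of the same replicate number and a bar at each mean of 3. Thap1 is higher and Thap2 and Thap4 are lower in all 3 numbered pairs, while the Hcfc1 lines are nearly level.

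Thap11 fell later and less. It was at 53.4, 48.7 and 53.4 CPM at 0 h, 43.7, 47.5 and 46.2 CPM at 4 h, 36.5, 40.2 and 39.3 CPM at 24 h and 36.7, 41.8 and 38.0 CPM at 48 h. The 4 h libraries were all below the 0 h libraries, but the difference of -0.18 ± 0.07 did not pass the test (adjusted p = 0.174). At 24 h and 48 h the log2 fold changes were -0.42 ± 0.07 (adjusted p = 0.00049) and -0.42 ± 0.07 (adjusted p = 0.00039). The step from 4 h to 24 h was -0.24 ± 0.07 (adjusted p = 0.0222), a call lost without 24 h replicate 1, 4 h replicate 2 or 4 h replicate 3 (adjusted p up to 0.0903).

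In TT-seq, Thap11 was at 7.29, 4.48 and 5.52 CPM untreated and at 7.10, 3.27 and 3.57 CPM with auxin. Replicate 1 was the highest in both groups and the groups overlapped, so the log2 fold change of -0.33 ± 0.31 did not pass the test (adjusted p = 0.586). The replicate numbers do pair the TT-seq libraries, and with the number as a block the same gene was at -0.37 ± 0.12 with an adjusted p of 0.0057 in edgeR and at -0.37 ± 0.18 with an adjusted p of 0.0978 in DESeq2. The blocked edgeR fit left 2 residual degrees of freedom and drew most of its variance estimate from other genes (131 prior degrees of freedom). The cause of the difference between the tools was not tested.

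Thap3 was the member with the lowest counts, 33 to 145 per RNA-seq library, and had the widest errors of the 7 genes in the time series. It was at 2.28, 2.46 and 2.81 CPM at 0 h, 1.32, 1.40 and 2.43 CPM at 4 h, 3.01, 3.50 and 4.81 CPM at 24 h and 4.58, 5.50 and 4.32 CPM at 48 h. The 48 h libraries were all above those at 0 h, and the log2 fold change was 0.93 ± 0.25 (adjusted p = 0.0066). At 4 h it was -0.55 ± 0.26 (adjusted p = 0.237) and at 24 h 0.58 ± 0.25 (adjusted p = 0.0740), neither past the test. Between 4 h and 24 h Thap3 rose by 1.13 ± 0.25 (adjusted p = 0.0038), the one increase among the 6 genes over that step, against 15.9% of all tested genes. In TT-seq its 21 to 58 counts per library gave 0.875, 0.789 and 1.09 CPM untreated and 0.828, 0.968 and 0.649 CPM with auxin, a difference of -0.15 ± 0.26 (adjusted p = 0.792).

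Thap7, whose protein was described as a histone-tail-binding repressor, passed the test in no comparison. It was at 26.5, 32.6 and 35.4 CPM at 0 h, 32.6, 37.7 and 35.4 CPM at 4 h, 29.5, 31.9 and 30.2 CPM at 24 h and 29.3, 33.6 and 31.8 CPM at 48 h. All 4 groups overlapped except 4 h and 24 h, which differed by -0.21 ± 0.10 (adjusted p = 0.139). The log2 fold changes from 0 h were 0.16 ± 0.10, -0.05 ± 0.10 and 0.00 ± 0.10, and TT-seq gave 0.09 ± 0.15 (adjusted p = 0.799). The last RNA-seq value is so near 0 that its sign turned under other scalings.

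Hcfc1, the member with the most counts, rose by a small amount in steady-state RNA, while its nascent RNA did not pass the test. It was at 538, 504 and 508 CPM at 0 h, 648, 624 and 586 CPM at 4 h, 657, 644 and 622 CPM at 24 h and 693, 706 and 652 CPM at 48 h. Each library with auxin was above each library at 0 h. The log2 fold changes were 0.26 ± 0.06 at 4 h (adjusted p = 0.0127), 0.31 ± 0.06 at 24 h (adjusted p = 0.00056) and 0.40 ± 0.06 at 48 h (adjusted p = 4.65e-05). The 4 h call was lost when 4 h replicate 1 or 2 or 0 h replicate 2 or 3 was left out (adjusted p between 0.0583 and 0.0760). The steps from 4 h to 24 h (0.05 ± 0.06) and from 24 h to 48 h (0.09 ± 0.06) did not pass.

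Nascent Hcfc1 RNA was at 155, 117 and 145 CPM in untreated replicates 1, 2 and 3 and at 154, 114 and 141 CPM with auxin. The 3 numbered pairs were close, while the replicates within a group were further apart than the groups. The log2 fold change was -0.03 ± 0.14 (adjusted p = 0.934), and -0.03 ± 0.04 (adjusted p = 0.551) with the replicate block. RNA-seq and TT-seq came from separate tables normalized apart, and the difference between the 0.26 and the -0.03 was not tested.

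**Figure D3:**
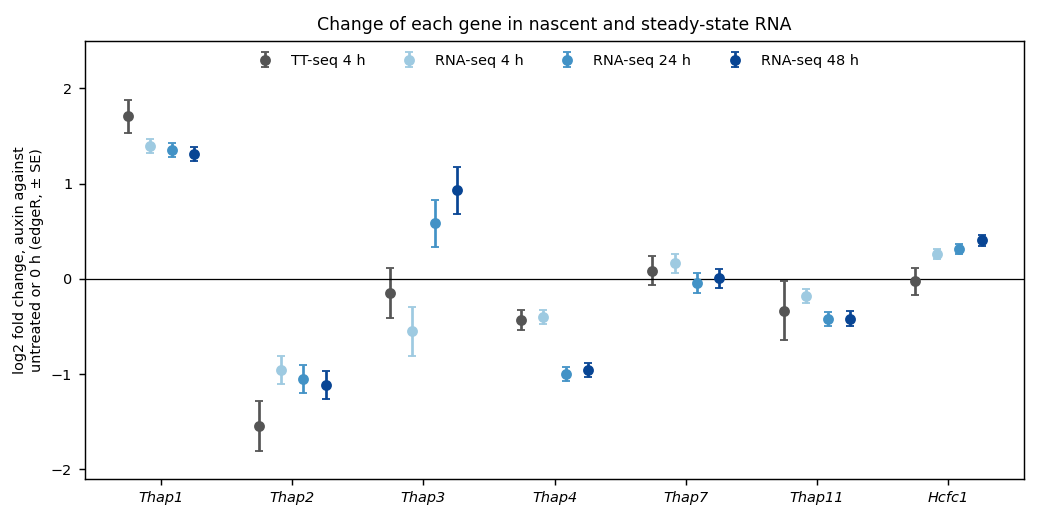
Log2 fold change of each gene (vertical axis, edgeR estimate ± SE) in TT-seq at 4 h of auxin against untreated and in RNA-seq at 4, 24 and 48 h against 0 h. Thap1 lies above 1.3 and Thap2 at or below -0.96 in all 4 comparisons, and Thap3 moves from -0.55 at 4 h to 0.93 at 48 h.

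Over the nascent comparison, 0 of the 6 tested genes rose and 2 fell, against 2.11% and 7.09% of 11218 genes. This fit did not use the pairing of the TT-seq libraries. None of these 6 rose at an unadjusted p under 0.05 in it, and DESeq2 without the block called the same 2. With the replicate block in edgeR, Thap11 was called lower as well, where 2541 genes were higher and 2833 lower over all. From 4 h to 24 h, 1 of the 6 rose and 2 fell, against 15.9% and 17.7% of tested genes. From 24 h to 48 h, edgeR called 0 of 7 members, against 3.03% of genes that rose and 2.84% that fell, with 0 of 7 at an unadjusted p under 0.05 and 0 of 7 called by DESeq2.

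In the untreated lines none of the 7 genes passed edgeR's test in any of the 3 pairs of lines (adjusted p from 0.993 to 1), where 0, 0 and 9 genes (0.0826%) were called over all 10892 tested. None was at an unadjusted p under 0.05 in these fits, and none was called by DESeq2 or with the replicate block. With the block, 1 member, Hcfc1, was at an unadjusted p under 0.05 in YY1-AID against parental (0.24 ± 0.10, adjusted p = 0.316). Over the whole table, DESeq2 called 154 to 208 genes and the block 438 to 680. Thap1 was at 9.52 and 9.96 CPM in the parental line (replicates 1 and 2), 10.4 and 8.62 CPM in the YY1-AID subline and 8.99 and 8.84 CPM in subline 3. The time series was scaled apart and had Thap1 at 18.2 to 19.7 CPM at 0 h in the YY1-AID subline. CPM levels are therefore not compared between these RNA-seq tables. The YY1-AID subline differed from the parental line by -0.03 ± 0.21 on the log2 scale and subline 3 by -0.13 ± 0.21, both smaller than their standard errors. The subline 3 libraries were nonetheless below both parental ones. How many of all genes lacked overlap between lines in this way was not counted.

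Replicate number separated several members more than the line did. Thap2 was at 5.85 and 10.3 CPM in the parental line, 5.04 and 11.7 CPM in the YY1-AID subline and 7.99 and 13.2 CPM in subline 3, with replicate 2 higher in each. Thap4 was the other way round, at 55.4 and 40.6 CPM in the parental line, 54.7 and 43.3 CPM in the YY1-AID subline and 48.1 and 37.7 CPM in subline 3. Thap3, Thap7 and Thap11 were also higher in replicate 1 of each line. Hcfc1 was at 300 and 337 CPM in the parental line, 344 and 409 CPM in the YY1-AID subline and 356 and 342 CPM in subline 3. Both sublines lay above the parental line without overlap, with differences of 0.24 ± 0.18 and 0.13 ± 0.18 that did not pass the test (adjusted p = 1.00 and 0.993). Here too, the share of all genes without overlap was not counted.

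**Figure D4:**
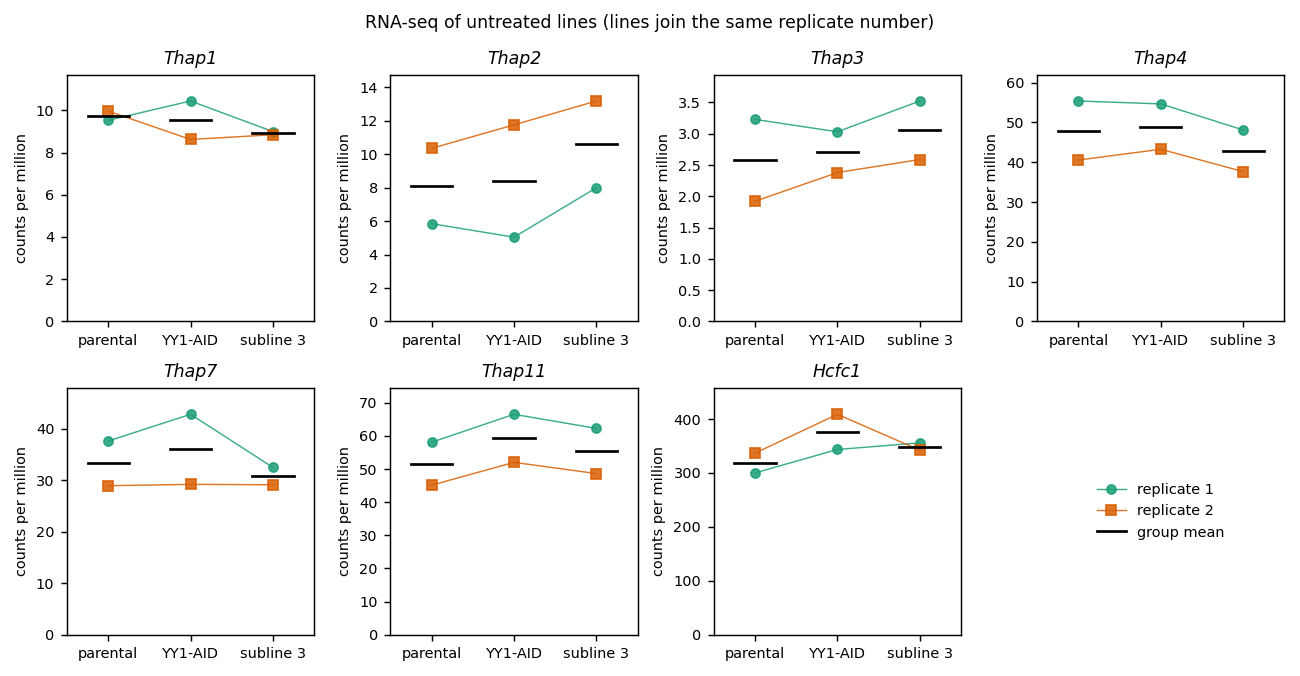
RNA-seq CPM (vertical axis, from 0) of each gene in the untreated parental line, the YY1-AID subline and subline 3, with lines joining the same replicate number and a bar at each mean of 2. The separation by replicate number exceeds that by line for Thap2, Thap4 and Thap11, and Thap1 stays between 8.62 and 10.4 CPM.

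Of the other THAP genes, Thap12 was the only one called. It was at 148, 143 and 136 CPM at 0 h and 184, 172 and 161 CPM at 4 h, a log2 fold change of 0.27 ± 0.06 (adjusted p = 0.0140), a call lost in 4 of the 6 fits that left out 1 library (adjusted p up to 0.0831). It passed the test in no other comparison. Thap6 passed in none of them. Thap8 was listed in the untreated lines only and was too low to test.

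A list of 37 genes for proteins known to bind or act with HCF-1 was counted alongside. In steady-state RNA at 4 h, 1 rose (2.70%, against 3.14% of all tested genes) and 2 fell (5.41%, against 4.14%). Kmt2e, a SET-domain chromatin protein, fell by 0.65 ± 0.09 on the log2 scale (adjusted p = 0.0013), and Ogt, the O-GlcNAc transferase that also cleaves HCF-1 into its mature subunits, by 0.61 ± 0.11 (adjusted p = 0.0058). Kansl2, a subunit of the NSL acetyltransferase complex, rose by 0.30 ± 0.07 (adjusted p = 0.0195), a call lost in 5 of those 6 fits (adjusted p up to 0.101). At 24 h, 2 rose (5.41%) and 13 fell (35.1%), against 21.5% of all tested genes in each direction. The 2 rises became 1 in 5 of the 6 fits that left out 1 library. At 48 h, 4 rose (10.8%, against 24.9%) and 16 fell (43.2%, against 24.6%). The falls at 24 h were led by p-value by E2f4, a cell cycle repressor (-0.55 ± 0.06), Hdac1, a histone deacetylase (-0.58 ± 0.08), Sin3b, a scaffold of deacetylase complexes (-0.56 ± 0.08), and Ash2l, a subunit of the H3K4 methyltransferases (-0.36 ± 0.06). At 48 h, Hdac1 was at -0.89 ± 0.08, E2f4 at -0.57 ± 0.06, Men1, an adaptor of the MLL methyltransferases, at -0.49 ± 0.06 and Ash2l at -0.46 ± 0.06. The list's median log2 fold change was -0.12 at both times, beside 0.03 over all genes.

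In nascent RNA, 0 of the 37 partners rose and 7 fell (18.9%, against 7.09% of all tested genes), with a list median of -0.01 beside 0.02 over all genes. Each fit that left out 1 library called 4 to 6 of them lower, Foxk1 being lost in 6 of 6 fits and Kansl1 in 5. Ogt was at 130, 143 and 132 CPM in untreated replicates 1, 2 and 3 and at 66.5, 65.8 and 58.2 CPM with auxin, a log2 fold change of -1.09 ± 0.09 (adjusted p = 0.0003). All 3 auxin libraries stood near the same level, well under the untreated ones. Kmt2e followed at -0.66 ± 0.09, Ash2l at -0.55 ± 0.08 and Hdac1 at -0.50 ± 0.09. With the replicate block, 10 partners rose and 13 fell, where 2541 genes were higher and 2833 lower of all 11218 tested. That fit made 5374 calls over all genes, against 1032 without the block. Under spike-in scaling 0 partners rose and 0 fell, where 1 gene was higher and 0 were lower over all. With spike-in scaling and the block together 2 rose and 12 fell, where 1128 genes were higher and 2411 lower over all.

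**Figure D5:**
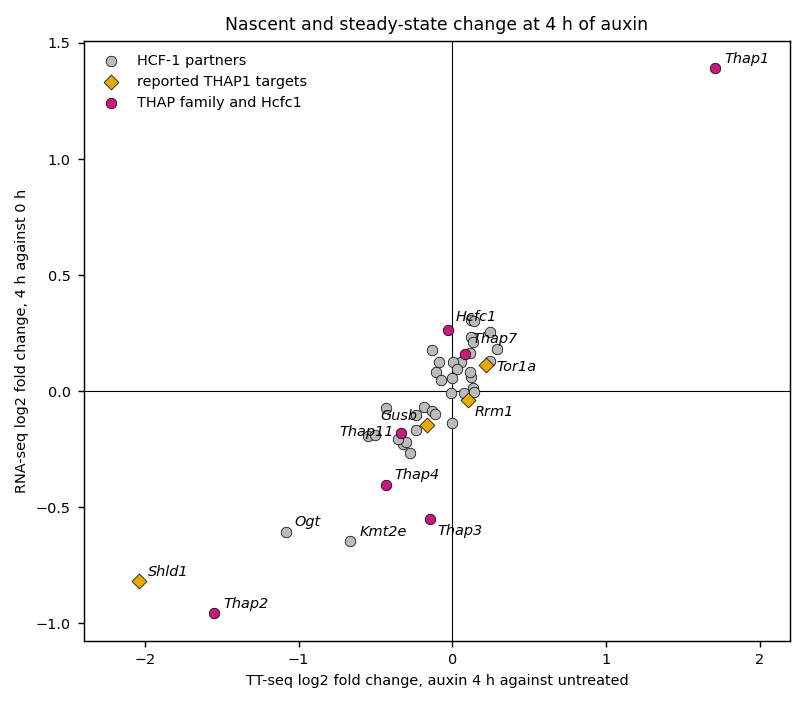
Log2 fold change in TT-seq (horizontal axis, 4 h of auxin against untreated) and in RNA-seq (vertical axis, 4 h against 0 h) for the 7 genes, the 37 HCF-1 partners and 4 reported THAP1 targets, 1 point per gene. Thap1 stands alone at the upper right, Thap2 and Shld1 lie at the lower left with Ogt and Kmt2e nearer the centre, and most partners lie close to 0.

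THAP1, YY1 and HCF-1 have been reported to act together on Shld1, a subunit of the shieldin complex that protects DNA ends. Of 4 genes reported as THAP1 targets, Shld1 fell in both assays. In steady-state RNA it was at 4.61, 4.64 and 5.42 CPM at 0 h and 2.64, 2.19 and 3.47 CPM at 4 h, and between 0.819 and 1.44 CPM at 24 h and 48 h. The log2 fold changes were -0.82 ± 0.23 (adjusted p = 0.0447), -2.30 ± 0.25 and -2.15 ± 0.24 at 4, 24 and 48 h. The 4 h call was lost in 5 of the 6 fits that left out 1 library (adjusted p up to 0.140). In TT-seq, Shld1 was at 15.6, 21.3 and 18.3 CPM untreated and 3.86, 5.04 and 4.44 CPM with auxin (-2.04 ± 0.16, adjusted p = 0.0003). Gusb, a lysosomal glucuronidase, fell at 24 h (-0.56 ± 0.08) and 48 h (-0.70 ± 0.08), times at which 21.5% and 24.6% of all tested genes fell. Rrm1, a subunit of ribonucleotide reductase, and Tor1a, the torsin ATPase of another dystonia, passed the test in no comparison.

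Neighbouring genes were taken from the RefSeq gene table. No protein-coding gene overlapped any of the 7. Thap2 lies head-to-head within 1 kb of Zfc3h1, and Thap4 of Atg4b. Zfc3h1 passed the test in no comparison, whereas Thap2 fell in all comparisons with untreated cells of its own subline. Atg4b fell by less than Thap4, at -0.24 ± 0.06 at 24 h and -0.22 ± 0.06 at 48 h, and was not called at 4 h in either assay. Rnf170, the nearest protein-coding gene to Thap1, was not called at 4 h in RNA-seq or TT-seq and rose later, by 0.51 ± 0.09 at 24 h and 0.57 ± 0.09 at 48 h. Among the nearest neighbours of the others, Phf13 (Thap3) rose at 24 h and 48 h, Lztr1 (Thap7) rose at 24 h, Cenpt (Thap11) fell at 48 h and Renbp (Hcfc1) rose at 48 h. Of all tested genes, 21.5% were called in each direction at 24 h. At 48 h, 24.9% were called higher and 24.6% lower, so such neighbour calls are common.

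Profiles were compared by the root mean square difference of the log2 fold changes over the 4 comparisons with untreated cells, among 7149 genes of sufficient level in both assays. The 3 RNA-seq values of a profile share the 0 h libraries. The 5 nearest to Thap1 were Unc119b (0.417), Setd4 (0.491), Tyw3 (0.502), Gabpb2 (0.559) and Slc6a9 (0.566), all higher than untreated but by less than Thap1 at 4 h in both assays. Cyb5d2, another gene higher at 4 h, was at 1.84 in RNA-seq and 1.68 in TT-seq, beside 1.39 and 1.71 for Thap1. The distances were smaller for Hcfc1, with Bbs12 (0.0403), Kif18b (0.0459), Hook3 (0.0523), Orc4 (0.0529) and Prdm2 (0.0533) nearest, and the size of a distance scales with the size of the changes compared.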

How the data were processed

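RNA-seq and TT-seq count tables of mouse G1E-ER4 cells were used. For RNA-seq, the authors deposited estimated counts per gene symbol as whole numbers, made with Salmon 0.13.1 per the submitters' processing notes. For TT-seq, the authors deposited counts per gene, with separate Drosophila spike-in counts. Trim Galore 0.6.10 and STAR are named in the submitters' processing notes, with mm9. The library kit was strand-specific per the labels. Salmon's transcript set and the strandedness used for counting TT-seq reads are not stated by any source at hand. Rows naming no gene (17.2% to 22.2% no feature and 0.391% to 0.529% ambiguous in TT-seq) were left out. Peaks and loops were not used.

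Each table was fitted on its own with edgeR 4.0.16 (R 4.3.3): TMM, filterByExpr by group, a quasi-likelihood test without replicate block and Benjamini-Hochberg adjustment over all tested genes, at a threshold of 0.05. SE is the log2 fold change over the root of F. CPM are counts per 1000000 of the TMM-scaled library size. The fits were tried on simulated independent libraries without replicate effects. That does not check the unblocked fits of TT-seq and the untreated lines, whose libraries are paired. Members, lists and tests were chosen with earlier results of these data known, and the genes named outside the members follow a written rule: all other THAP genes, all reported THAP1 targets, each member's neighbour, the 4 HCF-1 partners of smallest p per comparison described and the 5 most alike profiles. Cyb5d2 and Yy1 were added for reference.

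Pairing was checked by correlating deviations from group means over genes. Same-numbered libraries correlated at 0.40 to 0.66 in TT-seq and 0.63 to 0.74 in the untreated lines, so the numbers pair those libraries, from the data, and at -0.07 to 0.10 in the time series, where they do not. Alternatives were RLE scaling, DESeq2 1.42.0, no filter, the replicate block, only the 2 groups compared, leaving out each library, and for TT-seq spike-in scaling, leaving out Rn45s and, chosen after seeing the data, leaving out replicate 1 of both groups and DESeq2 with the block.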

Additional observations from a re-analysis of the deposited data

How the results depend on the processing

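Counts of called members kept within 1.5 times of the main count under every alternative run except in TT-seq, where the 2 called genes other than Thap1 became 0 to 2 when 1 library was left out, 0 with spike-in library sizes and 1 without replicate 1 of both groups. Of the member values, 17 alternatives lost a call and 3 gained one, with the direction kept. The losses were Hcfc1 at 4 h, Thap11 from 4 h to 24 h (also without the filter, adjusted p = 0.0509), and Thap2 and Thap4 in TT-seq. The gains were Thap3 at 24 h without 24 h replicate 1 (adjusted p = 0.0492) and Thap11 in TT-seq with the replicate block and with spike-in sizes plus the block (adjusted p = 0.0057 and 0.0114); the block changed no other member's call. In the time series, where the numbers do not pair the libraries, the block moved the calls over all genes at 4 h from 1103 to 1493.

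Signs turned only for members that were not called in that comparison. Thap7 at 48 h was -0.0045 under RLE, -0.0045 in DESeq2 and -0.011 without the filter. The ranges of the log2 fold change when 1 library was left out were as follows. Against 0 h, Thap7 ran from -0.17 to 0.040 at 24 h and from -0.12 to 0.084 at 48 h. From 4 h to 24 h, Thap1 ran from -0.074 to 0.024 and Thap2 from -0.22 to 0.080. From 24 h to 48 h, Thap2 ran from -0.24 to 0.068, Thap4 from -0.010 to 0.078 and Thap11 from -0.054 to 0.036. In TT-seq, Thap7 ran from -0.073 to 0.17 and Hcfc1 from -0.14 to 0.086. For the YY1-AID subline against the parental line, Thap1 ran from -0.18 to 0.10, Thap2 from -0.68 to 0.54, Thap3 from -0.26 to 0.49, Thap4 from -0.18 to 0.27 and Thap7 from -0.19 to 0.36. For subline 3 against the parental line, Thap2 ran from -0.015 to 0.86, Thap3 from -0.081 to 0.67, Thap4 from -0.37 to 0.083, Thap7 from -0.29 to 0.093 and Thap11 from -0.070 to 0.30. For subline 3 against the YY1-AID subline, Thap1 ran from -0.23 to 0.050, Thap2 from -0.15 to 1.07, Thap3 from -0.031 to 0.38, Thap7 from -0.47 to 0.078, Thap11 from -0.26 to 0.094 and Hcfc1 from -0.23 to 0.024. The cause of these changes was not tested.

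Over all genes, DESeq2 called 1715 at 4 h, and leaving out 1 library gave 603 to 723. In TT-seq the 1032 calls became 5374 with the block, 1 with spike-in sizes, 3539 with both, 3633 in DESeq2 with the block and 431 to 834 without 1 library. The HCF-1 partners that fell at 4 h went from 2 to 5 in DESeq2 and with the block, where the genes lower over all went from 627 to 1050 and 832.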
